A study of Mus musculus with 3 samples.

Results

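Matricellular glycoproteins are secreted into the extracellular matrix but, unlike collagen, are not its main load-bearing fibres. They bind collagen, integrins and growth factors and tune how cells attach, migrate and signal, and many of them are low in resting adult skin and high during development, wound repair and fibrosis. Periostin and tenascin-C are the classic wound-associated members, the thrombospondins bind calcium, matrix and cell-surface receptors, SPARC binds collagen, osteopontin is a cytokine-like ligand of integrins and CD44, and fibronectin is the adhesive glycoprotein that cells assemble into fibrils.

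The 10 genes described here are Postn (periostin), Tnc (tenascin-C), Thbs1 to Thbs4 and Comp (the thrombospondin family), Sparc, Spp1 (osteopontin) and Fn1 (fibronectin). They are a list of gene names to which no limit on measured values was applied, drawn up with earlier results of these data known, and are 10 of the 32285 genes in the count matrices. All 10 were found, and 8 of them had a mean level of at least 10 CPM (counts of unique molecular identifiers, UMIs, scaled to the same total in every class and library) in fibroblasts in each comparison, whereas Comp and Spp1 did not.

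The study profiled full-thickness dorsal skin by droplet single-cell RNA sequencing in 3 groups of wild type C57BL/6J mice, with 1 library per group. The age given is 8 weeks, stated with the purchase of the mice, and the age when skin was taken is not stated. Control skin (CON) was not irradiated. The UV group was irradiated with UVA at 0.60 and UVB at 3.5 mW/cm2 on alternate days over 12 weeks, and the Rux group had the same irradiation, each exposure being followed directly by an ointment of 1.5% ruxolitinib, an inhibitor of the kinases JAK1 and JAK2. Skin was taken 24 h after the last exposure. The study describes vehicle on the CON and UV skin, which the labels do not state, and how many mice went into a library is not given in the sources used here.

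With 1 library per condition there is no replicate, so no difference was tested between conditions and no p-value is given. Values carry exact 95% intervals from the number of UMIs, each standing for 1 captured molecule, or of cells, and these cover counting error only. Differences between animals, between dissociations and between libraries cannot be told apart from the treatment.

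The deposited matrices held 13170, 12411 and 11287 cells for CON, UV and Rux, with 165337289, 133972374 and 131570327 UMIs. After filters on genes, mitochondrial UMIs and doublets, 10885, 10327 and 9386 cells were kept, with medians of 7567, 7664 and 9443 UMIs. Few cell barcodes were shared between libraries, with 50 for CON and UV, 28 for CON and Rux and 40 for UV and Rux. The labels give female mice, yet the Y-linked gene Ddx3y was at 110, 116 and 121 CPM of all cells in CON, UV and Rux, and Xist, which marks the inactive X chromosome, at 0.0912, 0.118 and 0.111 CPM. Both levels go against the label, and in the same way in all 3 libraries.

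Cells were grouped into 44 clusters without using the 10 genes, and clusters were named from marker lists. The classes used here are fibroblast-like (FB), pericyte-like (PCY), vascular and lymphatic endothelial-like (VEC, LEC), Schwann-like (SCH), melanocyte-like (MEL), myogenic progenitor-like (MP), skeletal muscle-like (SKM), myeloid-like (MYE), neutrophil-like (NEU), lymphocyte-like (LYM), mast cell-like (MC) and basal keratinocyte-like (KB) cells, and a joint epithelial class of 14 clusters that includes KB. FB-like cells numbered 3369, 5007 and 4631 in CON, UV and Rux, which was 31.0%, 48.5% and 49.3% of the cells kept. Their summed fibroblast markers stood at 34160, 25981 and 26602 CPM, all 6 detected, and the basal keratinocyte markers in the same cells at 250, 102 and 104 CPM. A level below is the CPM of a gene in the summed UMIs of a class in 1 library, and a 3′ kit counts each transcript once whatever its length.

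**Figure D1:**
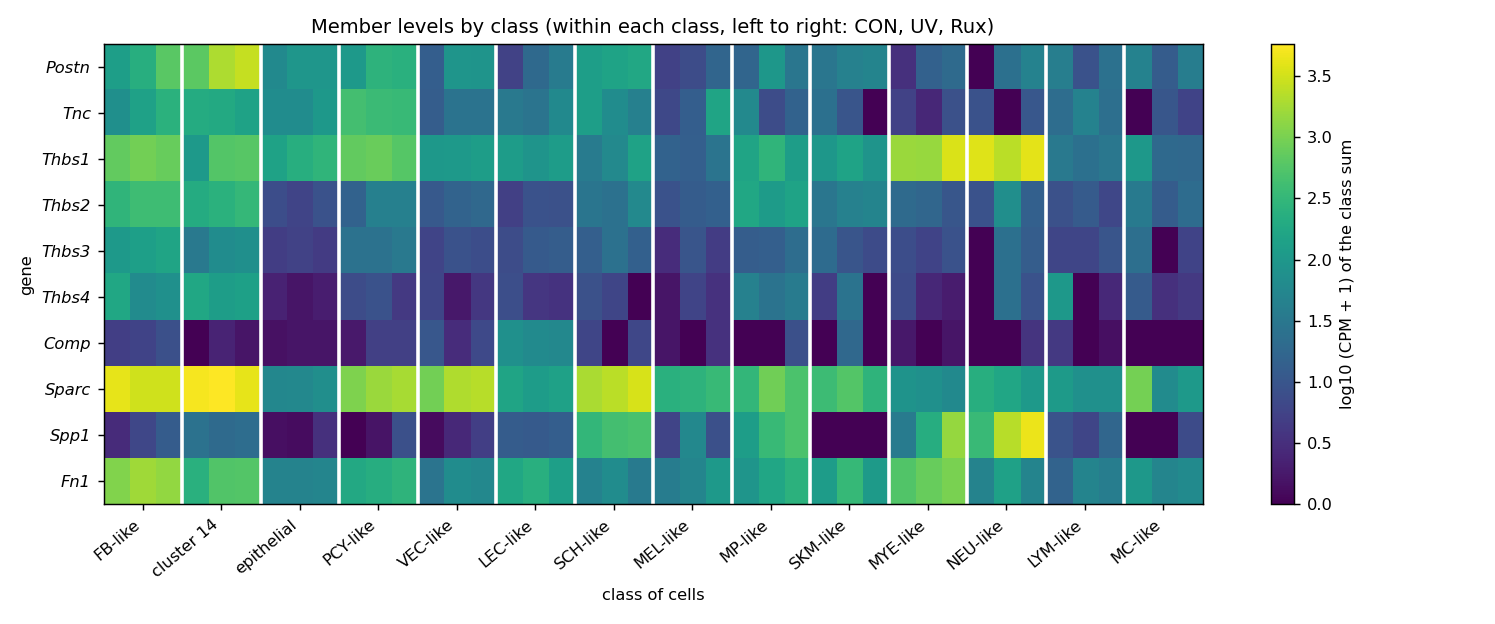
Level of each gene (one line of tiles per gene) in each class of cells (columns; within a class CON, UV and Rux from left to right), as log10 of CPM + 1 of the class sum, with no replicate. Sparc and Fn1 are bright across the FB-like columns, Thbs1 is brightest in MYE-like and NEU-like cells, and Spp1 is bright in NEU-like, MYE-like, SCH-like and MP-like cells.

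FB-like cells held most UMIs of 5 of the 10 genes in every library. In CON, UV and Rux they carried 77.5%, 90.4% and 86.9% of all Thbs2 UMIs, 70.2%, 85.1% and 89.1% of Thbs3, 82.7%, 83.7% and 79.2% of Thbs4, 75.6%, 74.6% and 78.5% of Sparc and 74.3%, 88.7% and 86.5% of Fn1. Postn and Tnc were less bound to this class in CON, where 2766 of 11059 Postn UMIs and 14.6% of Tnc UMIs lay in FB-like cells, against 57.4% and 66.7% in Rux. Epithelial cells held 48.9% of Postn and 53.3% of Tnc UMIs in CON and 7.30% and 22.7% in Rux. The epithelial share of all cells also differed, since 3723, 1971 and 1624 epithelial cells were kept, so a share of UMIs mixes cell number with level per cell.

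In FB-like cells, a gene counted as past the fold when it differed at least 1.5-fold (a log2 ratio of 0.58 after rounding) at a mean of at least 10 CPM. Between UV and CON, 3 of the 8 members above that level were higher in UV (Postn, Tnc and Fn1), where 6.45% of 8231 genes were, and 1 was lower (Thbs4), where 7.78% were. Between Rux and UV, 2 of 8 were higher in Rux (Postn and Tnc), against 3.17% of 8039 genes, and 0 were lower, against 5.32%. Between Rux and CON, 3 of 8 were higher in Rux (Postn, Tnc and Thbs3), against 7.15% of 8183 genes, and 1 was lower (Thbs4), against 10.5%. The median log2 ratio over all those genes was -0.09, 0.01 and -0.08 in the 3 comparisons. Each pair of comparisons shares a library, so the comparisons are not independent of each other.

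**Figure D2:**
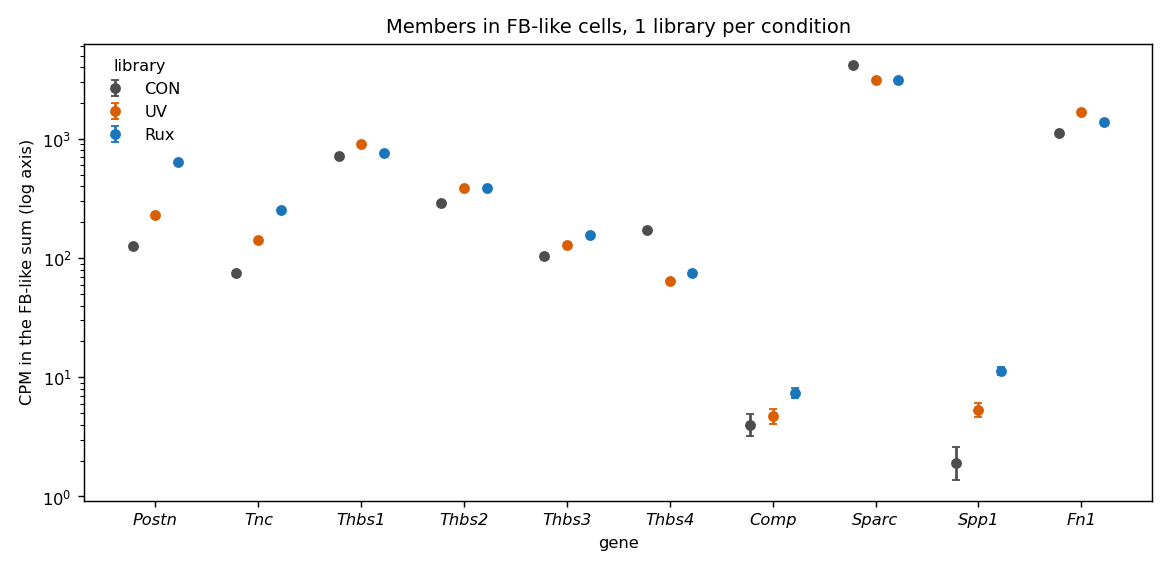
Level of each gene in FB-like cells (CPM of the class sum, log axis) in CON, UV and Rux, with bars for the exact 95% Poisson interval, which is narrower than the point where no bar shows. Postn and Tnc step up from CON to UV to Rux, Thbs4 is highest in CON, and Comp and Spp1 lie near or below 10 CPM.

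Postn encodes periostin, a partner of collagen and of integrins that is induced in wounds and by TGF-beta. The gene (ENSMUSG00000027750) lies on chromosome 3 at 54361109 to 54391037, + strand, in GRCm38. In FB-like cells it stood at 126 CPM (95% interval 121 to 130) in CON, 230 (225 to 235) in UV and 634 (627 to 641) in Rux. The order was thus CON, UV, Rux, with log2 ratios of 0.87 (0.81 to 0.93) for UV over CON, 1.46 (1.43 to 1.50) for Rux over UV and 2.34 (2.28 to 2.39) for Rux over CON. By size the Rux over UV ratio was number 20 from the top of 8039 genes. After thinning every cell to 2000 UMIs, 8.21%, 13.5% and 25.3% of FB-like cells had a Postn UMI, so the share of cells with the transcript had the same order as the level. LYM-like cells, which should lack it, had shares of 0.816%, 0.870% and 5.78% at the same thinned depth.

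Tnc encodes tenascin-C, a large hexameric glycoprotein of wound edges and embryonic mesenchyme that weakens fibronectin-based adhesion. It (ENSMUSG00000028364) lies on chromosome 4 at 63959785 to 64047015, − strand. Its FB-like level was 74.6 CPM (71.0 to 78.3) in CON, 142 (138 to 146) in UV and 253 (248 to 257) in Rux. The log2 ratios were 0.93 (0.85 to 1.01), 0.83 (0.79 to 0.88) and 1.76 (1.69 to 1.84) for UV over CON, Rux over UV and Rux over CON. The share of thinned FB-like cells with a UMI was 3.78%, 5.39% and 6.30%, against 1.63%, 6.52% and 3.18% of LYM-like cells, so the UV share was no higher than theirs. By level LYM-like cells stood lower than FB-like cells, at 21.0, 46.0 and 22.4 CPM. That was 11.9, 13.4 and 3.59 times what free fibroblast RNA, in proportion to the collagen UMIs there, would give. Free RNA of epithelial cells, which held most Tnc UMIs in CON, is not part of that estimate. Few FB-like cells thus carried a Tnc UMI at the thinned depth.

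Promoters are shown for Postn and Tnc, which were past 1.5-fold in all 3 comparisons and highest in Rux, and for Thbs4, which was lower past 1.5-fold in UV and Rux than in CON. Sequences are from RefSeq on GRCm38.p6 and run 5′ to 3′ on the strand of the gene from 250 bases before to 50 bases after an annotated start. Capitals mark matches, on either strand, of 4 motifs: the TATA box (TATAAA), the AP-1 site (TGANTCA), the site of TEAD factors (GGAATG) and that of STAT factors (TTCNNNGAA). The RefSeq table held promoters of 7 of the 10 genes, and Postn and Tnc have a second start each, not printed.
Postn, chr3:54360857-54361156, + strand: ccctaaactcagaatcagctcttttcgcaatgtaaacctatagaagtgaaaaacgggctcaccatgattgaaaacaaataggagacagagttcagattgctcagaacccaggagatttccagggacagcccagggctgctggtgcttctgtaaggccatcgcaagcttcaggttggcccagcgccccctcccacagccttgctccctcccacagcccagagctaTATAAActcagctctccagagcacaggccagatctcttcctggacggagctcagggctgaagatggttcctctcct
Tnc, chr4:64046966-64047265, − strand: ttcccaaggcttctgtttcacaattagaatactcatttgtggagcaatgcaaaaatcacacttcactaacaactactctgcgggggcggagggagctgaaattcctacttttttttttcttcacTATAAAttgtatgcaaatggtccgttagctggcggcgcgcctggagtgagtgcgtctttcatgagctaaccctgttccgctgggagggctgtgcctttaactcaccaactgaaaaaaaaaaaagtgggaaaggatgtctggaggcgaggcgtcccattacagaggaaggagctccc
Thbs4, chr13:92794769-92795068, − strand: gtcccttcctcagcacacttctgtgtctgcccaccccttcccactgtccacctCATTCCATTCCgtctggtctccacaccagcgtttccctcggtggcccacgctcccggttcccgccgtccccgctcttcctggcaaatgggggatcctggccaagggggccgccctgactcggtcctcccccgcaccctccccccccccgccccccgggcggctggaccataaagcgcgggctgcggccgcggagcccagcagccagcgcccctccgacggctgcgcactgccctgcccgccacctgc

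Both the Postn and the Tnc window held 1 TATAAA, which is found in 13.6% of 32817 promoter windows of this length. It was also found in a window of Spp1 and, on the opposite strand, in that of Thbs2. A match is one of letters anywhere in the window, and that of Tnc lies much farther before the printed start than that of Postn. Whether either acts as a TATA box was not tested. The Thbs4 window held 2 overlapping GGAATG matches on the opposite strand, where 14.7% of windows hold that motif at least once. No window printed held TGANTCA (7.81% of all windows) or TTCNNNGAA (8.29%), which says only that these letters are not within these bases. CCAAT, searched in the same way, is found in 37.4% of windows and in none of the 3 printed.

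FB-like cells were split again into 12 subclusters, numbered 0 to 11, once more without the 10 genes. The subclusters were unevenly filled across libraries. Subcluster 2, led by Socs3, Irf1 and Egr1, had 1205 cells in CON, 378 in UV and 21 in Rux, and subcluster 9, led by Saa3, Hp and Lcn2, had 0, 19 and 447. Subcluster 7, led by Igfbp2 and Grem1, had 368, 63 and 261 cells, and subcluster 0, led by Myo16, Adam12 and Cthrc1, had 164, 700 and 1017. A level over all FB-like cells therefore mixes the level within a subcluster with the makeup of the library. The libraries were clustered together with no step to align them, so a subcluster can be a state of cells as well as a kind. Cells whose expression changes with treatment can move to another subcluster. Values within subclusters and at the makeup of CON therefore cannot separate makeup from an effect of treatment.

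**Figure D3:**
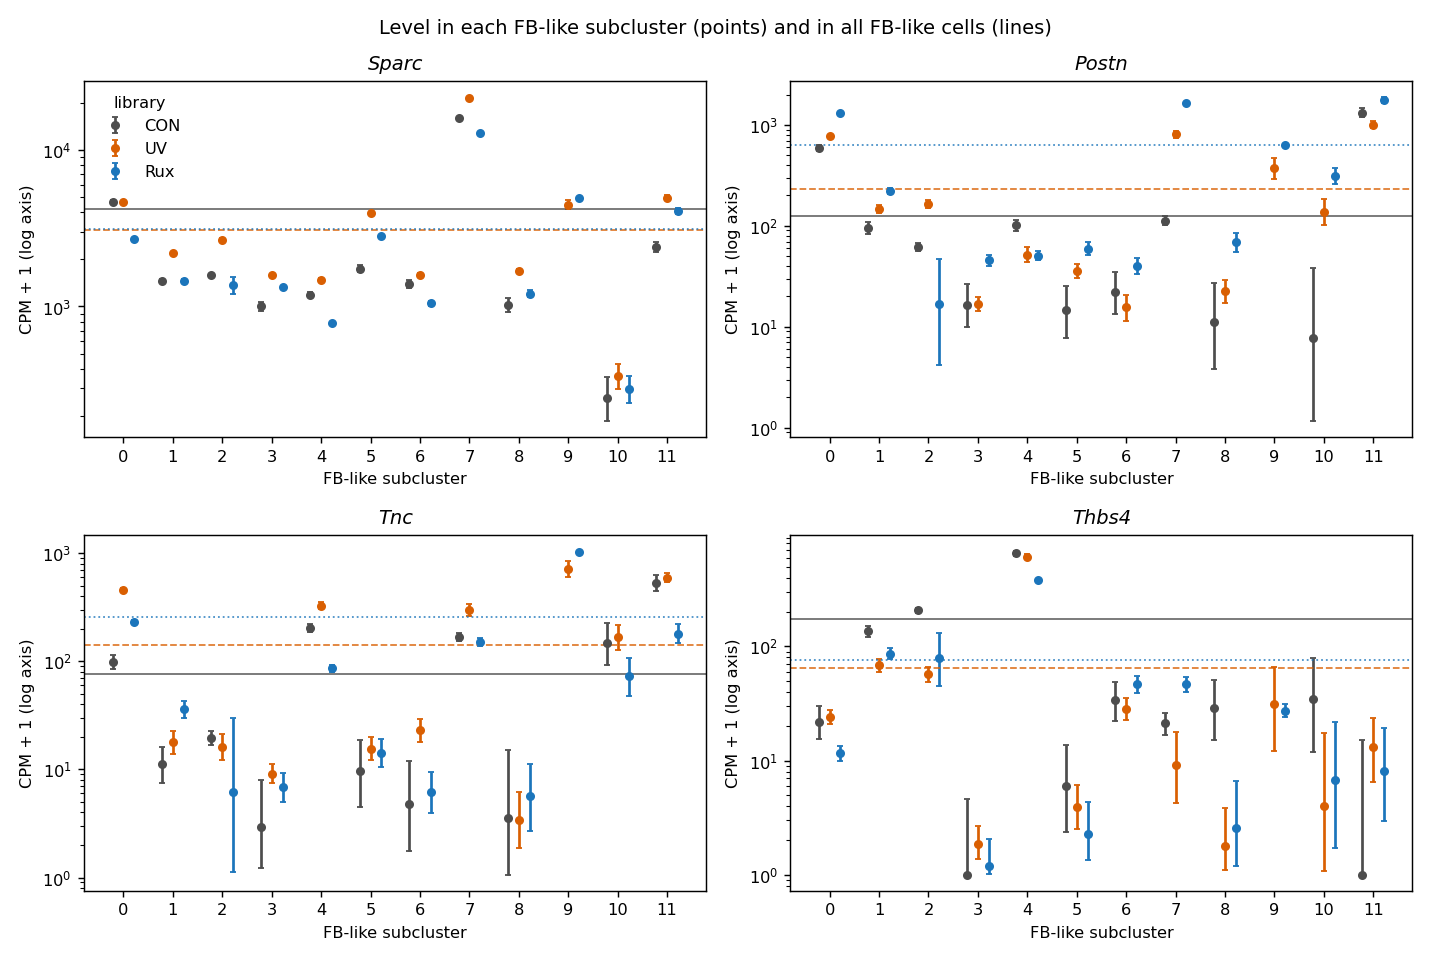
Level (CPM + 1, log axis) of Sparc, Postn, Tnc and Thbs4 in each FB-like subcluster (points, with exact 95% Poisson intervals) and in all FB-like cells (grey line CON, dashed orange UV, dotted blue Rux). Sparc peaks in subcluster 7 in every library, Postn in 0, 7 and 11, Tnc of Rux in 9, and Thbs4 in 4.

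For Postn the direction held in most subclusters. Of the 10 with at least 50 cells in both UV and Rux, 9 had a higher Postn level in Rux, the exception being subcluster 4 at 51.0 (42.9 to 60.1) and 49.6 (44.7 to 55.0) CPM. By the same rule for each pair of libraries, which changes the subclusters counted, UV was above CON in 7 of 10 subclusters, and Rux was above CON in 8 of 9. In subcluster 4 CON was highest, with log2 ratios of -0.98 for UV over CON and -1.02 for Rux over CON. Subcluster 0 stood at 591, 777 and 1306 CPM in CON, UV and Rux, and subcluster 7 at 112, 804 and 1630. Subcluster 9 had 371 CPM in UV and 633 in Rux. In subcluster 11, led by Coch, Fmod and Crabp1, Postn was already high in CON, at 1327 CPM, with 1009 in UV and 1768 in Rux, and it was lower in UV than in CON. Subcluster 11 had 43 cells in CON and so is outside the counts against CON. At the subcluster makeup of CON, the log2 ratios of Postn were 1.23 for UV over CON and 0.58 for Rux over UV over 11 subclusters, and 1.35 and 0.91 over the 9 that had 50 or more cells in each library. Before rounding, the Rux over UV value over 11 subclusters was just under 1.5-fold. For every gene, 37.9% of the weight over 11 subclusters fell on subcluster 2, which had 21 cells in Rux. The 9 leave subcluster 2 out, so they cover only part of the makeup of CON.

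For Tnc the subclusters did not follow the sum. Rux was lower than UV in 8 of the 10 subclusters compared, among them subcluster 0 (455 CPM in UV, 230 in Rux), subcluster 4 (326 and 85.0) and subcluster 11 (592 and 179). The highest level of all was in subcluster 9, at 1022 CPM (1000 to 1045) in Rux and 712 (599 to 839) in the 19 UV cells, and it held 63.1% of FB-like Tnc UMIs in Rux. Without subcluster 9 the log2 ratio of Tnc for Rux over UV was -0.33, and at the makeup of CON, which leaves that subcluster out, it was -1.17 over 11 subclusters and -1.13 over 9. Tnc UMIs of Rux FB-like cells thus lay mostly in the Saa3-, Hp- and Lcn2-led cells, and in other subclusters the level was mostly lower than in UV. Subcluster 9 had the highest Tnc and held 0, 19 and 447 cells in CON, UV and Rux. Leaving it out takes cells almost only from Rux, so the Rux over UV ratio falls by construction. Whether its cells are a separate kind of fibroblast or a state of the others was not tested.

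**Figure D4:**
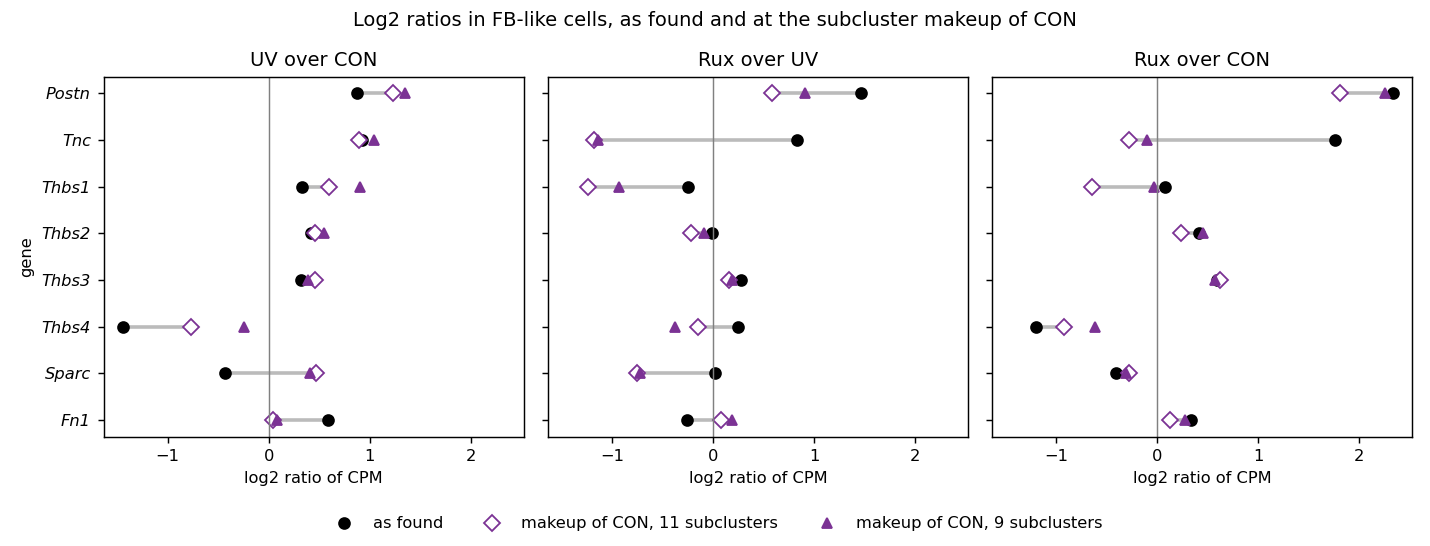
Log2 ratio of CPM in FB-like cells for the 8 genes above 10 CPM, in the 3 comparisons, as found (black), and with subclusters weighted as in CON over 11 (open diamonds) or 9 subclusters (triangles). Postn stays to the right of 0 throughout, whereas Tnc moves from 0.83 to -1.17 for Rux over UV and Sparc from -0.43 to 0.47 for UV over CON.

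Outside FB-like cells, the highest Postn levels were in cluster 14, which was left unnamed although the fibroblast list led in it. Its leading genes, among them Lrrc15, Col11a1 and Ednrb, held a pericyte marker, Acta2, and no fibroblast marker. Its 123, 178 and 476 cells had Postn at 645 CPM (611 to 681) in CON, 2009 (1950 to 2070) in UV and 2729 (2689 to 2769) in Rux. The step lay mainly between CON and UV, with a log2 ratio of 1.64 (1.55 to 1.73), against 0.44 (0.39 to 0.49) for Rux over UV. In Rux this cluster held 32.5% of all Postn UMIs. Tnc there was at 206, 188 and 148 CPM, so Tnc did not share the order of Postn in these cells.

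Postn was also read in epithelial cells. Cluster 8, an epithelial cluster led by Shisa2, Lgr5 and Tbx1, had 666, 240 and 120 cells and Postn at 212, 511 and 725 CPM in CON, UV and Rux. Tnc in the same cells was at 205 CPM (198 to 212), 305 (290 to 320) and 455 (427 to 485), and Thbs1 at 144, 473 and 633. All 3 genes were thus ordered CON, UV, Rux in this cluster, with Rux over CON log2 ratios of 1.78, 1.15 and 2.14. Over the whole epithelial class Postn was at 60.9, 93.1 and 95.2 CPM, Tnc at 67.5, 66.3 and 101, and Thbs1 at 145, 229 and 285. There Tnc was not higher in UV than in CON, and Postn was close in UV and Rux. The makeup of the epithelial class also differed, with 723, 28 and 97 cells in CON, UV and Rux in cluster 12, led by Krt1, Krt77 and Krt10. The part of makeup in these class levels was not tested. KB-like cells, in which the clusters differ in makeup between libraries, had Tnc at 21.6, 86.7 and 320 CPM, and cluster 38 within them, with 6, 43 and 139 cells, at 294, 343 and 492.

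PCY-like cells, the mural cells of vessels, had Tnc at 439 CPM (403 to 477) in CON, 370 (341 to 400) in UV and 336 (300 to 375) in Rux. CON was thus the highest library there and the lowest in FB-like cells. The UV and Rux intervals overlapped, and no comparison of Tnc in PCY-like cells reached 1.5-fold. Postn in PCY-like cells was at 107, 269 and 243 CPM. VEC-like cells had Postn at 12.1 CPM (8.74 to 16.4), 89.0 (81.2 to 97.3) and 88.8 (76.9 to 102). Of these UMIs most lay in cluster 27, which is led by Rgs5, a pericyte gene, beside endothelial genes and stood at 35.1, 213 and 196 CPM with 79, 178 and 62 cells, against 6.67, 13.1 and 22.5 in cluster 15 and 2.38, 10.9 and 24.2 in cluster 28. The summed pericyte markers in VEC-like cells moved with it, at 1097, 1950 and 1884 CPM, all 6 detected, and their part in the Postn level was not tested.

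Thbs1 encodes thrombospondin-1, an inhibitor of vessel growth that can activate latent TGF-beta and binds CD47 and CD36. It (ENSMUSG00000040152) lies on chromosome 2 at 118111876 to 118127133, + strand. In FB-like cells the level was 723 CPM (711 to 734) in CON, 909 (899 to 919) in UV and 764 (757 to 772) in Rux, and no comparison passed 1.5-fold. The log2 ratios were 0.33 (0.30 to 0.36), -0.25 (-0.27 to -0.23) and 0.08 (0.05 to 0.11) for UV over CON, Rux over UV and Rux over CON.

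The small differences in the Thbs1 sum hid larger ones within subclusters. UV was above CON in 9 of 10 subclusters, and Rux was below UV in 7 of 10. Subcluster 0 stood at 1145, 2487 and 1371 CPM, subcluster 4, led by Frmpd4, Col8a1 and Cilp, at 1824, 2132 and 1206, and subcluster 7 at 468, 1483 and 721. In all 3 the UV library was highest. At the makeup of CON the log2 ratio for Rux over UV was -1.23 over 11 subclusters and -0.93 over 9, and that for UV over CON was 0.59 and 0.90.

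Of the named classes, NEU-like and MYE-like cells had the highest Thbs1 levels in every library. NEU-like cells, led by S100a8 and S100a9, stood at 3829 CPM (3497 to 4183) in CON, 2363 (1920 to 2876) in UV and 3995 (3853 to 4140) in Rux, from 50, 21 and 223 cells. MYE-like cells stood at 1578 (1510 to 1647), 1538 (1470 to 1608) and 3521 (3458 to 3586), from 214, 186 and 386 cells, so CON and UV did not differ beyond counting error and Rux was 1.19 log2 units (1.13 to 1.27) above UV. The collagen UMIs in MYE-like cells of Rux were 2.33% of the FB-like level, and Thbs1 was 197 times the level that free fibroblast RNA in that proportion would give. Neutrophil markers in MYE-like cells stood at 57.9, 45.2 and 117 CPM in CON, UV and Rux, with 2, 2 and 1 of 5 at 0, and their part in the Thbs1 level was not tested. PCY-like cells had 723, 796 and 585 CPM and KB-like cells 466, 694 and 772. Cluster 14 stood at 108, 563 and 597 CPM, with a log2 ratio of 2.38 (2.17 to 2.59) for UV over CON.

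**Figure D5:**
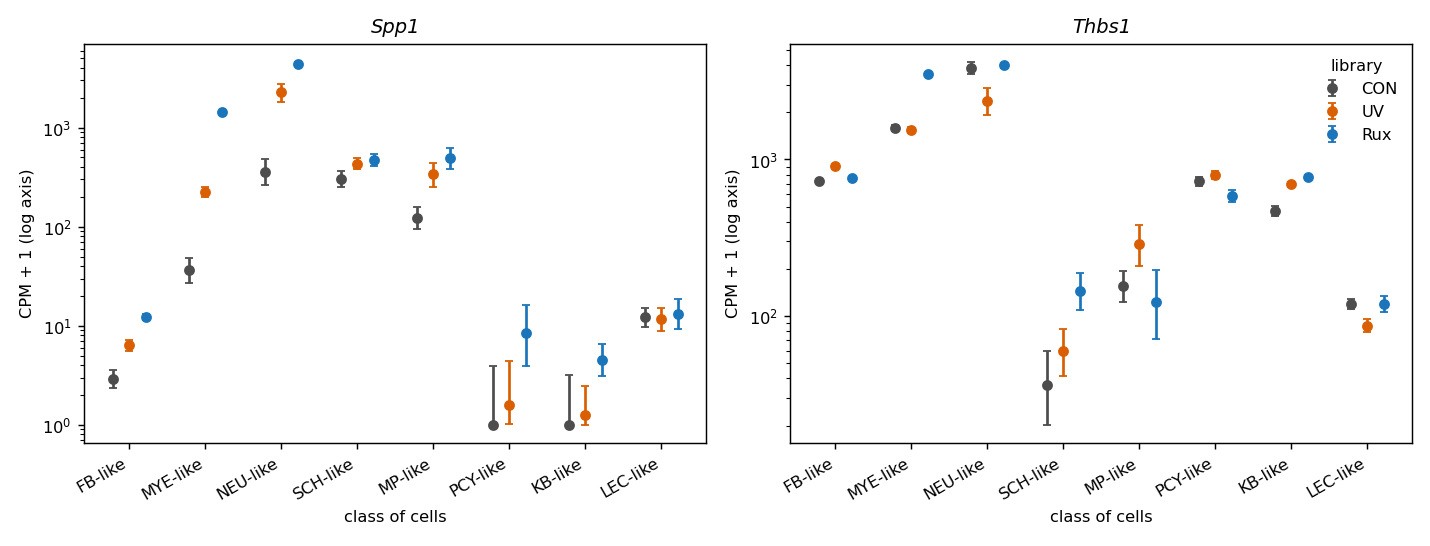
Level (CPM + 1, log axis) of Spp1 (left) and Thbs1 (right) in 8 classes of cells for CON, UV and Rux, with exact 95% Poisson intervals. Spp1 in MYE-like cells goes from 35.8 CPM in CON to 1445 in Rux, while Thbs1 in those cells is 1578 and 1538 in CON and UV and 3521 in Rux.

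Thbs2 encodes thrombospondin-2, known from null mice for its part in collagen fibril assembly in skin. It (ENSMUSG00000023885) lies on chromosome 17 at 14665500 to 14694235, − strand. FB-like levels were 291 CPM (284 to 299) in CON, 390 (384 to 397) in UV and 388 (383 to 394) in Rux, so UV and Rux did not differ beyond counting error (log2 ratio -0.01, -0.04 to 0.02). Both were above CON, by 0.42 (0.38 to 0.46) and 0.41 (0.37 to 0.45), which is short of 1.5-fold. A Thbs2 UMI was found in 34.9%, 41.5% and 41.4% of thinned FB-like cells, against 2.86%, 1.30% and 0.867% of LYM-like cells. Its highest subcluster was number 7 in all libraries, at 452, 687 and 721 CPM.

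Thbs3 encodes thrombospondin-3, a pentameric family member first known from cartilage and bone. It (ENSMUSG00000028047) lies on chromosome 3 at 89215180 to 89226837, + strand, and overlaps Mtx1 on the opposite strand. How strand was used in counting is not given in the sources used here. FB-like levels were 104 CPM (99.7 to 108) in CON, 130 (126 to 133) in UV and 157 (153 to 160) in Rux. The steps were even, at 0.32 (0.25 to 0.39) and 0.27 (0.22 to 0.33) on the log2 scale, and only the whole step of 0.59 (0.53 to 0.66) from CON to Rux reached 1.5-fold. UV was above CON in 10 of 10 subclusters and Rux above CON in 9 of 9, with log2 ratios between 0.30 and 1.70 for the latter. At the makeup of CON the Rux over CON ratio was 0.62 over 11 subclusters and 0.58 over 9, so makeup hardly moved it.

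Thbs4 encodes thrombospondin-4, a pentamer of tendon, muscle and perivascular matrix. The gene (ENSMUSG00000021702) lies on chromosome 13 at 92751590 to 92794818, − strand. It was lower in both irradiated libraries, and the one member lower past 1.5-fold, at 173 CPM (168 to 179) in CON, 63.7 (61.2 to 66.3) in UV and 75.7 (73.3 to 78.1) in Rux. Its log2 ratios were -1.44 (-1.52 to -1.37) for UV over CON, 0.25 (0.17 to 0.32) for Rux over UV and -1.20 (-1.26 to -1.13) for Rux over CON. The share of thinned FB-like cells with a UMI went the same way, at 11.1%, 4.12% and 5.32%, against 0.408%, 0 and 0.578% of LYM-like cells.

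In UV and Rux, though not in CON, most FB-like Thbs4 UMIs lay in 1 subcluster. Subcluster 4, the Cilp- and Col8a1-led cells, had 653 CPM (622 to 686) in CON, 612 (584 to 642) in UV and 377 (363 to 391) in Rux, and held 42.5%, 70.5% and 73.8% of FB-like Thbs4 UMIs. Subcluster 3, led by Dtna, Limch1 and Sntg1, had 0, 0.859 and 0.187 CPM, the 0 of CON allowing up to 2.93. Subcluster 2, at 206, 55.7 and 78.3 CPM, had 1721 of the 3818 CON UMIs and 15 of the 3791 Rux UMIs. At the makeup of CON the UV over CON log2 ratio was -0.77 over 11 subclusters and -0.24 over 9. UV was below CON in 8 of 10 subclusters, and Rux was below CON in 7 of 9.

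Comp, cartilage oligomeric matrix protein or thrombospondin-5, is known from cartilage and tendon. It (ENSMUSG00000031849) lies on chromosome 8 at 70373558 to 70382066, + strand. FB-like cells had only 3.99 CPM (3.20 to 4.92) in CON, 4.72 (4.05 to 5.47) in UV and 7.38 (6.65 to 8.18) in Rux. UV and CON did not differ beyond counting error (log2 ratio 0.24, -0.14 to 0.63). Most of those UMIs were in subcluster 5, led by Gdf10 and Apoe, at 56.8, 31.1 and 60.8 CPM, and in Rux also in subcluster 9, at 17.3 CPM (14.5 to 20.4).

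The highest Comp level of any named class was in LEC-like cells, the lining of lymphatic vessels, at 76.4 CPM (69.7 to 83.6) in CON, 61.6 (54.6 to 69.3) in UV and 55.9 (46.8 to 66.3) in Rux. These cells held 67.7%, 44.0% and 21.7% of all Comp UMIs from 438, 303 and 147 cells. After thinning, 10.3%, 10.4% and 9.09% of LEC-like cells had a Comp UMI, against 0.0812%, 0.258% and 0.188% of epithelial cells. Cluster 4, led by Gdf10 and Mgp and also left unnamed though the fibroblast list led in it, was at 31.2, 92.8 and 53.3 CPM. The Comp level of LEC-like cells was 751, 833 and 459 times what free fibroblast RNA in proportion to collagen would give. UV was below CON by 0.31 log2 units (0.09 to 0.53), and the Rux and UV intervals of level overlapped.

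Sparc encodes osteonectin, a collagen-binding calcium protein that assists procollagen handling. It (ENSMUSG00000018593) lies on chromosome 11 at 55394500 to 55423183, − strand. FB-like levels were 4161 CPM (4134 to 4188) in CON, 3092 (3074 to 3110) in UV and 3132 (3117 to 3148) in Rux, with log2 ratios of -0.43 (-0.44 to -0.42), 0.02 (0.01 to 0.03) and -0.41 (-0.42 to -0.40). None reached 1.5-fold in the sum.

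Subcluster 7, the Igfbp2- and Grem1-led cells, had by far the highest Sparc, at 15897 CPM (15770 to 16024) in CON, 21351 (21044 to 21661) in UV and 12779 (12665 to 12894) in Rux. It was 10.9%, 1.26% and 5.64% of FB-like cells and held 65.3%, 15.9% and 30.5% of their Sparc UMIs. Within subclusters the order was another: UV was above CON in 9 of 10 and Rux below UV in 10 of 10. Without subcluster 7, UV over CON became 0.61 on the log2 scale, and at the makeup of CON it was 0.47 over 11 subclusters and 0.41 over 9, while Rux over UV was -0.76 and -0.72. The lower Sparc sum of UV FB-like cells thus went with fewer subcluster 7 cells, and within most subclusters UV was the highest library.

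In VEC-like cells Sparc stood at 915 CPM (884 to 948) in CON, 2063 (2025 to 2102) in UV and 2311 (2249 to 2375) in Rux. This order held in each of the 3 endothelial clusters, at 1118, 2265 and 2460 CPM in cluster 15, 1351, 2333 and 2842 in cluster 27 and 403, 775 and 1130 in cluster 28. The log2 ratios for the class were 1.17 (1.12 to 1.23) for UV over CON and 0.16 (0.12 to 0.21) for Rux over UV. SCH-like cells, the glia of skin nerves, were ordered alike at 1913, 2315 and 3439 CPM, and PCY-like cells at 1093, 1577 and 1836. Cluster 14 had 5040, 5765 and 4133 CPM. In MC-like and LYM-like cells Sparc stayed between 0.78 and 1.18 times the level that free fibroblast RNA would give, including the 941 CPM of MC-like cells in CON.

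Spp1 encodes osteopontin, a secreted phosphoprotein of macrophages and bone that draws and retains leukocytes. It (ENSMUSG00000029304) lies on chromosome 5 at 104435118 to 104441050, + strand. FB-like cells had almost none, at 1.91 CPM (1.37 to 2.58) in CON, 5.33 (4.62 to 6.13) in UV and 11.3 (10.4 to 12.3) in Rux, and 57.4% of the FB-like UMIs of Rux were in subcluster 9. LYM-like cells stood at 8.26, 5.18 and 16.7 CPM, so the FB-like level was not above theirs beyond counting error in any library. With doublets kept, the Rux over UV log2 ratio of 1.08 became -0.06. The 5 neutrophil markers, all detected, summed to 4.08, 3.65 and 21.9 CPM in FB-like cells, and their part in the Spp1 level there was not tested. Of all Spp1 UMIs in Rux, 50.5% were in MYE-like and 35.2% in NEU-like cells, against 7.07% and 6.92% in CON, where SCH-like cells held 18.2%.

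MYE-like cells, led by Lyz2, Ccl4 and Chil3, had Spp1 at 35.8 CPM (26.3 to 47.6) in CON, 223 (197 to 250) in UV and 1445 (1404 to 1486) in Rux. Both steps were large, with log2 ratios of 2.62 (2.19 to 3.12) for UV over CON and 2.69 (2.52 to 2.88) for Rux over UV. The share of thinned MYE-like cells with an Spp1 UMI was 3.06% (1.13 to 6.54), 10.5% (6.32 to 16.0) and 22.0% (17.8 to 26.6), against 1.22%, 0.870% and 1.73% of LYM-like cells. The part of the neutrophil markers given above for these cells in the Spp1 level was not tested either. With 20% mitochondrial UMIs allowed, the cells led by the myeloid list fell into 2 clusters. One, led by Lyz2, Chil3 and Il1b, had 70, 101 and 322 cells in CON, UV and Rux. The other, led by immunoglobulin and MHC class II genes and left unnamed, had 221, 157 and 155. The part of this makeup in the Spp1 and Thbs1 levels of MYE-like cells was not tested.

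NEU-like cells had Spp1 at 359 CPM (263 to 478) in CON, 2267 (1834 to 2771) in UV and 4435 (4285 to 4588) in Rux. The UV value rests on 95 UMIs from 2 of 21 cells, so only the order of CON and Rux, from 50 and 223 cells, has more than a few cells behind it. Thinned shares with a UMI were 20.5% (9.80 to 35.3) in CON and 29.4% (23.3 to 36.2) in Rux, and these intervals overlap. SCH-like cells had 303 CPM (252 to 363), 432 (381 to 489) and 472 (405 to 546), and MP-like cells 122, 337 and 493 from 151, 47 and 30 cells. Cluster 17, unnamed and led by Adgrb3, Hhip and Wif1, had 19.8, 22.0 and 99.3 CPM.

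Fn1 encodes fibronectin, the scaffold on which collagen and other matrix proteins are laid down. The gene (ENSMUSG00000026193) lies on chromosome 1 at 71585520 to 71653200, − strand. FB-like levels were 1110 CPM (1096 to 1124) in CON, 1666 (1653 to 1679) in UV and 1397 (1387 to 1408) in Rux, so UV was highest and Rux lay between. The UV over CON log2 ratio of 0.59 (0.56 to 0.61) sat at the edge of 1.5-fold, Rux over UV was -0.25 (-0.27 to -0.24) and Rux over CON was 0.33 (0.31 to 0.35). The thinned shares with a UMI were 65.6%, 77.7% and 75.1%, against 2.04%, 6.09% and 8.38% of LYM-like cells.

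The highest and lowest FB-like subcluster differed 4.33-fold in CON, 8.08-fold in UV and 10.8-fold in Rux for Fn1. The highest levels were in subcluster 3, at 1927, 2757 and 2548 CPM, and subcluster 8, led by Rasgef1c, Mrgprg and Smpd3, at 2252, 2771 and 2267. Subcluster 3 had 129 cells in CON and 1003 in UV. At the makeup of CON the UV over CON ratio was 0.05 over 11 subclusters and 0.09 over 9, against 0.59 as found. MYE-like cells had Fn1 at 542 CPM (503 to 583), 779 (731 to 829) and 1003 (969 to 1037), LEC-like cells at 171, 234 and 133, and cluster 14 at 245, 548 and 565.

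Over 38 sums of a class and a library with at least 50 cells, the gene whose log2(CPM + 1) ran most like Postn was Antxr1 (Pearson r = 0.816), which encodes a collagen-binding receptor. Cald1 led for Tnc (0.842), Gsn for Thbs2 (0.941), Itgbl1 for Thbs3 (0.902), Prr16 for Thbs4 (0.831), Col5a2 for Sparc (0.919), Rnase4 for Fn1 (0.827) and Cln3 for Spp1 (0.752). The gene most like Thbs1 was Gm13986 (0.834), a noncoding gene that ends beside the start of Thbs1 on the opposite strand, followed by the neutrophil chemokine Cxcl2 (0.813). Over 32 sums of an FB-like subcluster and a library, the leaders were Lrrc15 for Postn (0.868), Gdnf for Tnc (0.801), Bdkrb1 for Thbs1 (0.843), Loxl2 for Thbs2 (0.722), Apod for Thbs3 (0.854), Col8a1 for Thbs4 (0.854), Col1a2 for Sparc (0.978) and Zyx for Fn1 (0.898). Postn and Tnc had r = 0.704 with each other over classes and 0.696 over subclusters. These points share libraries and depth, and the values describe likeness only.

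Related genes were counted in FB-like cells, from lists chosen with earlier results of these data known. Of 28 other matricellular genes, 21 reached 10 CPM. Between UV and CON, 1 of them was higher, Vtn (log2 ratio 0.85), and 3 were lower, Ccn2 (-1.11), Fbln7 (-0.79) and Sparcl1 (-0.63), with a median of -0.11. Between Rux and UV, 5 were higher, namely Ccn3 (1.02), Ccn2 (0.91), Fbln7 (0.86), Fbln5 (0.71) and Mgp (0.68), and Spock2 was lower (-0.73), with a median of 0.17. Ccn2, a matricellular growth factor partner known as a target of TGF-beta and YAP, was thus lower in UV than in either other library. Between Rux and CON, Ccn3 was higher (1.07) and Spock2 (-0.79), Sparcl1 (-0.68) and Smoc2 (-0.60) were lower, with a median of 0.06.

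Of 20 genes for receptors of these glycoproteins or their uptake, 14 reached 10 CPM. Higher in UV than in CON were Itgav (0.98) and Itgb3 (0.87), which form an integrin that binds osteopontin, periostin and fibronectin, and Cd44 (0.80), while Sdc1 was lower (-0.66), with a median of 0.18. Rux was above UV for Itga5 (1.09), a chain of the fibronectin receptor, Sdc4 (0.78) and Sdc1 (0.69), and none was lower, with a median of 0.04. Rux was above CON for Itga5 (1.43), Itgb3 (1.12), Cd44 (0.94) and Itgav (0.81), with none lower and a median of 0.18.

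In a list of 20 genes that TGF-beta or activated fibroblasts are known to induce, 14, 16 and 15 reached 10 CPM in the 3 comparisons. Between UV and CON, Adam12 (1.12) and Tgfb2 (0.76) were higher and Inhba lower (-0.68), with a median of 0.24. Between Rux and UV, 7 were higher, among them Inhba (1.43), Lrrc15 (1.41), Adam12 (1.17), Tgfb1 (1.03), Timp1 (0.95) and Cthrc1 (0.68), and Col11a1 was lower (-1.07), with a median of 0.27. Between Rux and CON, 7 were higher and 0 lower, with a median of 0.58 and Adam12 (2.29) at the top. Beside these, the shares of all genes past 1.5-fold and their medians are those given above for FB-like cells. The ratios of all 3 lists are of FB-like sums, which mix level with subcluster makeup. Adam12 and Cthrc1 were among the leading genes of subcluster 0, with 700 cells in UV and 1017 in Rux. Timp1 was among those of subcluster 9, with 19 and 447. The part of makeup in the list ratios was not tested.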

How the data were processed

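The 3 deposited matrices hold UMI counts per gene and cell of 10x Genomics 3′ v3.1 libraries. The authors made these counts with Cell Ranger (6.1.2 in the submitters' processing notes, 7.0.0 in the matrix header) against mm10, and Seurat 5.3.0 is also named. They were used as deposited, with no authors' cell annotation. Each library is 1 condition, as labelled.

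Cells entered with 200 or more detected genes and a mitochondrial share no higher than 10%, and doublets were removed with Scrublet (scanpy 1.11.5) at 0.8% per 1000 cells. Clustering used Seurat 5.3.0 in R 4.3.3 (LogNormalize, 2000 variable genes less the 10 members, 30 components, resolution 1.5). A cluster was named when at least 3 markers were each in at least 10% of its cells and its list led the next by 1 log2 unit. It stayed unnamed where its leading genes held more markers of another list, or 3 or more immunoglobulin genes. It also stayed unnamed where its cells had low UMIs and no marker of its list was among the leading genes. FB-like cells were clustered again (20 components, resolution 0.5). The libraries were pooled without integration each time. UMIs were summed per class and library and given as CPM. Log2 ratios had 0.5 UMI added to each sum, with exact conditional 95% intervals. Shares of cells used cells thinned to 2000 UMIs, shallower cells being left out, with exact Clopper-Pearson intervals. The level from free fibroblast RNA was the FB-like level times the share of FB-like Col1a1, Col1a2 and Col3a1 found in the class. Free RNA of other classes was not estimated. Only the log2 ratio and its interval were tried on simulated data, with counts drawn from the Poisson model that the interval rests on. Filtering, clustering, naming, thinning and the weighting of subclusters were not simulated, nor was variation between animals or libraries. No test across samples was possible with 1 library per condition.

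The makeup of CON weighted each subcluster level by its share of CON UMIs, over the 11 subclusters with at least 10 cells in every library or the 9 with at least 50. Genes named are the 10 members, list genes past 1.5-fold, the genes most like each member, leading genes of clusters and subclusters, markers, and Ddx3y and Xist. Members and lists were chosen with earlier results of these data known. The values of 1 list gene are not reported here. Positions are from GENCODE M21 and promoters from RefSeq. Analyses ran in Python 3.11.15 with scipy 1.17.1, numpy 2.4.6 and pandas 2.3.3. Alternatives were other cell filters (500 genes and 5%, or 20% mitochondrial UMIs), no doublet removal, resolution 0.8, members kept as variable genes, scaling by the median of ratios, cells weighted equally, totals without haemoglobin, keratin and mitochondrial genes, every FB-led cluster, a 2-fold limit, the makeup of CON, and FB-like cells without subcluster 7 or 9. The last 2 and the 50-cell makeup were chosen after seeing the data.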

Additional observations from a re-analysis of the deposited data

Results flagged for a closer look

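In 6 cases the same gene differed past 1.5-fold between the same 2 libraries in opposite directions in different classes, each interval lying wholly on one side of 0. Only classes with at least 100 cells in both libraries and a mean of at least 10 CPM were used. For each case only the most raised and the most lowered class are given, and other classes could also be past the fold. Each condition is 1 library, so the difference between the classes was not tested. Postn was higher in Rux than in CON in LEC-like cells (log2 ratio 2.97, 35.2 against 4.45 CPM) and lower in LYM-like cells (-0.68, 24.6 against 39.4 CPM). The LEC-like values were 1.39 and 3.36 times, and the LYM-like values 13.2 and 1.57 times, what free fibroblast RNA would give in CON and Rux. Between UV and CON Postn was higher in VEC-like cells (2.86, 89.0 against 12.1 CPM) and lower in LYM-like cells (-2.29, 7.77 against 39.4 CPM), where 4 of 255 CON cells held all 62 UMIs.

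Tnc was higher in Rux than in CON in FB-like cells (1.76) and lower in SCH-like cells (-1.55, 41.9 against 125 CPM). The FB-like ratio took the other sign at the makeup of CON (-0.28, and -0.10 with 50 cells). The SCH-like value of Rux came from 16 UMIs and was 1.20 times what free fibroblast RNA would give, against 24.6 times in CON. Between Rux and UV Tnc was higher in LEC-like cells (1.16, 60.6 against 27.0 CPM) and lower in LYM-like cells (-1.04, 22.4 against 46.0 CPM). Between UV and CON it was higher in VEC-like cells (1.13, 26.1 against 11.8 CPM) and lower in SCH-like cells (-0.93, 65.5 against 125 CPM). Thbs2 was higher in Rux than in CON in PCY-like cells (1.54, 42.1 against 14.3 CPM) and lower in MYE-like cells (-1.07, 9.09 against 19.0 CPM). The PCY-like values were 0.75 and 0.88 times, and the MYE-like values 2.71 and 1.00 times, what free fibroblast RNA would give in CON and Rux.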

How the results depend on the processing

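No paired analysis was possible because each condition had 1 library, and no replicate could be left out. The share of all genes past the limit was not computed for the alternatives, so the counts of members below have no background beside them. With a 2-fold limit, 1 member passed between UV and CON (Thbs4) and 1 between Rux and UV (Postn). Between Rux and UV, 1 member (Postn) also passed with equal weight per cell (the cause was not tested) and without subcluster 9, and 4 (Postn, Tnc, Thbs1 and Sparc) at the makeup of CON over subclusters of at least 50 cells. Between Rux and CON, 2 (Postn and Thbs4) passed without subcluster 9 and at that makeup. Over 11 subclusters at the makeup of CON the counts were 4, 3 and 4, but of partly other genes, with Tnc, Thbs1 and Sparc for Rux over UV and Postn, at 0.58, just under 1.5-fold before rounding. Tnc changed sign for Rux over UV at the makeup of CON (-1.17, and -1.13 with 50 cells) and without subcluster 9 (-0.33), and for Rux over CON at the makeup of CON (-0.28, and -0.10 with 50 cells). Of the members above 10 CPM, no other ratio past 1.5-fold changed sign under any alternative run. Below that level, Spp1 for Rux over UV took the other sign without doublet removal (-0.06, from 1.08), as did Comp for Rux over CON at the makeup of CON with 50 cells (-0.02, from 0.88). Sparc for UV over CON, which was not past it, went from -0.43 to 0.47, 0.41 and, without subcluster 7, 0.61. These alternatives differ from the main values only in the weight of subclusters. Subcluster 9 held cells almost only of Rux and was highest in Tnc, so leaving it out lowers Tnc in Rux by construction. Depth limits Comp and Spp1 in FB-like cells, with 88 and 42 UMIs in CON, and every class with few cells.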

Other observations

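Some levels rested on 1 or a few cells. Thbs4 in LYM-like cells of CON was 99.2 CPM (84.2 to 116), against 0 in UV, which allows up to 1.94, and 1.75 in Rux, but 155 of its 156 UMIs lay in 1 cell of the 115 of cluster 32, led by Gzmc, Xcl1 and Trdc. Tnc in MEL-like cells was 5.50, 12.2 and 157 CPM in CON, UV and Rux, and the 129 UMIs of Rux came from 5 of 39 cells. Spp1 in MEL-like cells was 4.84, 55.1 and 7.29 CPM, with 68 UMIs from 9 of 67 cells in UV.

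Cluster 17, with 268, 308 and 112 cells, had Tnc at 379 CPM (363 to 395) in CON, 435 (417 to 453) in UV and 183 (162 to 206) in Rux, whereas Postn there was at 195, 213 and 509 CPM and Thbs1 at 107, 184 and 377. Cluster 41, led by adipocyte genes such as Cfd and Adipoq, had Thbs3 at 127 CPM (109 to 149) in CON, from 162 UMIs in 9.09% of its 55 cells, and at 3.22 and 3.00 CPM in UV and Rux.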
